A study of Rattus norvegicus with 24 samples.

Results

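Interferon-stimulated genes are genes whose RNA rises when a cell is exposed to interferon. The 9 measured here were Irf1, Irf7, Stat2, Ifit2, Ifit3, Oas1a, Isg15, Bst2 and Ifitm3. They were picked by gene symbol from the 32545 genes for which FPKM (fragments scaled to gene length and library size) was deposited. RNA of the nucleus accumbens (NAc) of adult male Sprague Dawley rats, 8 weeks old on arrival, was sequenced in 6 groups of 4 libraries, which the labels describe as biological replicates. The study's methods give a larger number of samples per group, and only these libraries were analysed here. In the injection experiment, 5 intraperitoneal injections of LPS at 250 µg/kg, or of saline, were followed by 5 days of heroin at doses rising from 1 to 5 mg/kg, or of saline. The 4 groups, named by first and second treatment, were Saline-Saline and LPS-Saline (no heroin) and Saline-Heroin and LPS-Heroin (with heroin). The labels place death 1 hour after the last injection. The study's methods put a brief locomotor test of every rat after that injection, and death within 1 hour of its end. LPS is a bacterial cell wall component that sets off an immune response. The labels place 1 week between LPS and the first heroin injection, whereas the study's methods give a shorter gap. In the self-administration experiment, rats with a jugular catheter took heroin at 0.075 mg/kg per infusion (Heroin-SA) or saline (Saline-SA) for 6 hours per day in 10 sessions and were killed straight after the last one. These rats were also housed singly on a reversed light cycle, so a difference in level between the experiments cannot be told apart from route, surgery, housing and time of day.

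Interferons act through receptors at the cell surface. Type I interferons activate the kinases Jak1 and Tyk2, which lead a complex of Stat2, a partner STAT protein and Irf9 to bind a DNA element called the ISRE. Type II interferon acts through a second element, the GAS. Microglia, astrocytes, neurons and the vessel wall can all respond. In RNA from whole tissue, fewer cells of a type and less RNA per cell cannot be told apart.

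The promoters of the genes were examined first, because the elements that define the response lie there. RefSeq promoter windows (build GRCr8, from 250 bases before to 50 bases after the start of the gene) matched 7 of the 9 genes, with none for Ifit2 or Isg15. The ISRE core was searched as GAAANNGAA and the GAS as TTCNNNGAA, on both strands. The ISRE core was present in 5 of the 7 windows (Ifit3, Irf7, Bst2, Ifitm3 and Oas1a) and in 9.71% of the 33469 promoters of the same length. A GAS was present in 4 of the 7 (Irf1, Bst2, Ifitm3 and Oas1a) and in 8.87% of all promoters. The match counts are a description of letters in these windows, and no binding was measured. The 150 bases before the start are given here 5′ to 3′ on the strand of the gene, for the 4 genes with an ISRE core and the highest mean FPKM. Capitals mark the ISRE core or its reverse complement, and in Bst2 a pair of cores overlap. The intervals are chr1:205541759-205541908 (minus strand) for Ifitm3, chr16:18254968-18255117 (minus strand) for Bst2, chr1:205800024-205800173 (minus strand) for Irf7 and chr1:241527176-241527325 (plus strand) for Ifit3.
Ifitm3: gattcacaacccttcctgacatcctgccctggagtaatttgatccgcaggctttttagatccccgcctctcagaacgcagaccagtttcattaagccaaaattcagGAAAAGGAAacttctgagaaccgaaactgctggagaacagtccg
Bst2: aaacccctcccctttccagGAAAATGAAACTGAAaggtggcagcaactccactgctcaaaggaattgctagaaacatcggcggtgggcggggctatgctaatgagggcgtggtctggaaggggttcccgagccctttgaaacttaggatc
Irf7: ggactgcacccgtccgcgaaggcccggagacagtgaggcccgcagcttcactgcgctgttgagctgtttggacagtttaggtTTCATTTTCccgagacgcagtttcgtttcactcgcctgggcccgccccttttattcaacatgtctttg
Ifit3: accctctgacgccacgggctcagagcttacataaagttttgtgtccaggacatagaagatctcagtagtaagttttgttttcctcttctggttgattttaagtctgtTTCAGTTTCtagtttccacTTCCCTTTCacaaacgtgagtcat

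The core began 44 bases before the start in Ifitm3, 131 and 125 bases before it in Bst2, 68 bases before it in Irf7, and 43 and 24 bases before it in Ifit3. In Bst2, 1 GAS match shared bases with the cores. RefSeq extends the Irf7 gene further upstream than the start used for its window, so that window lies within the gene's span. Oas1a, not shown, held cores 41 and 35 bases before its start.

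Libraries held 12312878 to 18850240 reads on genes, and whole reads could be recovered from 100% of the FPKM values. All 10 medium spiny neuron markers were above 0 in every group, and their summed FPKM ran from 1228 to 3266. Saline-Saline 1 stood apart with a summed choroid plexus FPKM of 333, against 0.572 to 27.1 in the other libraries. Red blood cell genes summed to 4635 FPKM in Saline-SA 4 and 3071 in Heroin-SA 4, against 334 to 1740 in the others. Mitochondrial genes took 15.9% of reads in Saline-SA 3 and 14.1% in Saline-SA 4, and 6.82% to 11.8% elsewhere. LPS-Saline 4 had the highest summed FPKM of fibroblast and mural cell markers, 156.

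All 9 genes were low to moderate in the NAc. FPKM is scaled by gene length, so levels can be set side by side. Stat2 had a mean of 9.31 FPKM over the 24 libraries, followed by Ifitm3 at 8.17, Bst2 at 4.74, Irf1 at 2.78 and Irf7 at 1.61. Ifit3 and Ifit2 had 1.28 FPKM each, Isg15 0.994 and Oas1a 0.422. The last of these had 3 to 33 reads per library, whereas Stat2 had 421 to 732, so counting error weighs far more on Oas1a. Of 8 interferon genes looked up, 6 were in the table (Ifna4, Ifnb1, Ifne, Ifng, Ifnk and Ifnl3), and these were almost undetected. Their summed FPKM was 0 in all 4 Saline-Saline libraries and at most 0.509 in any library. Other interferon genes were not looked up.

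**Figure D1:**
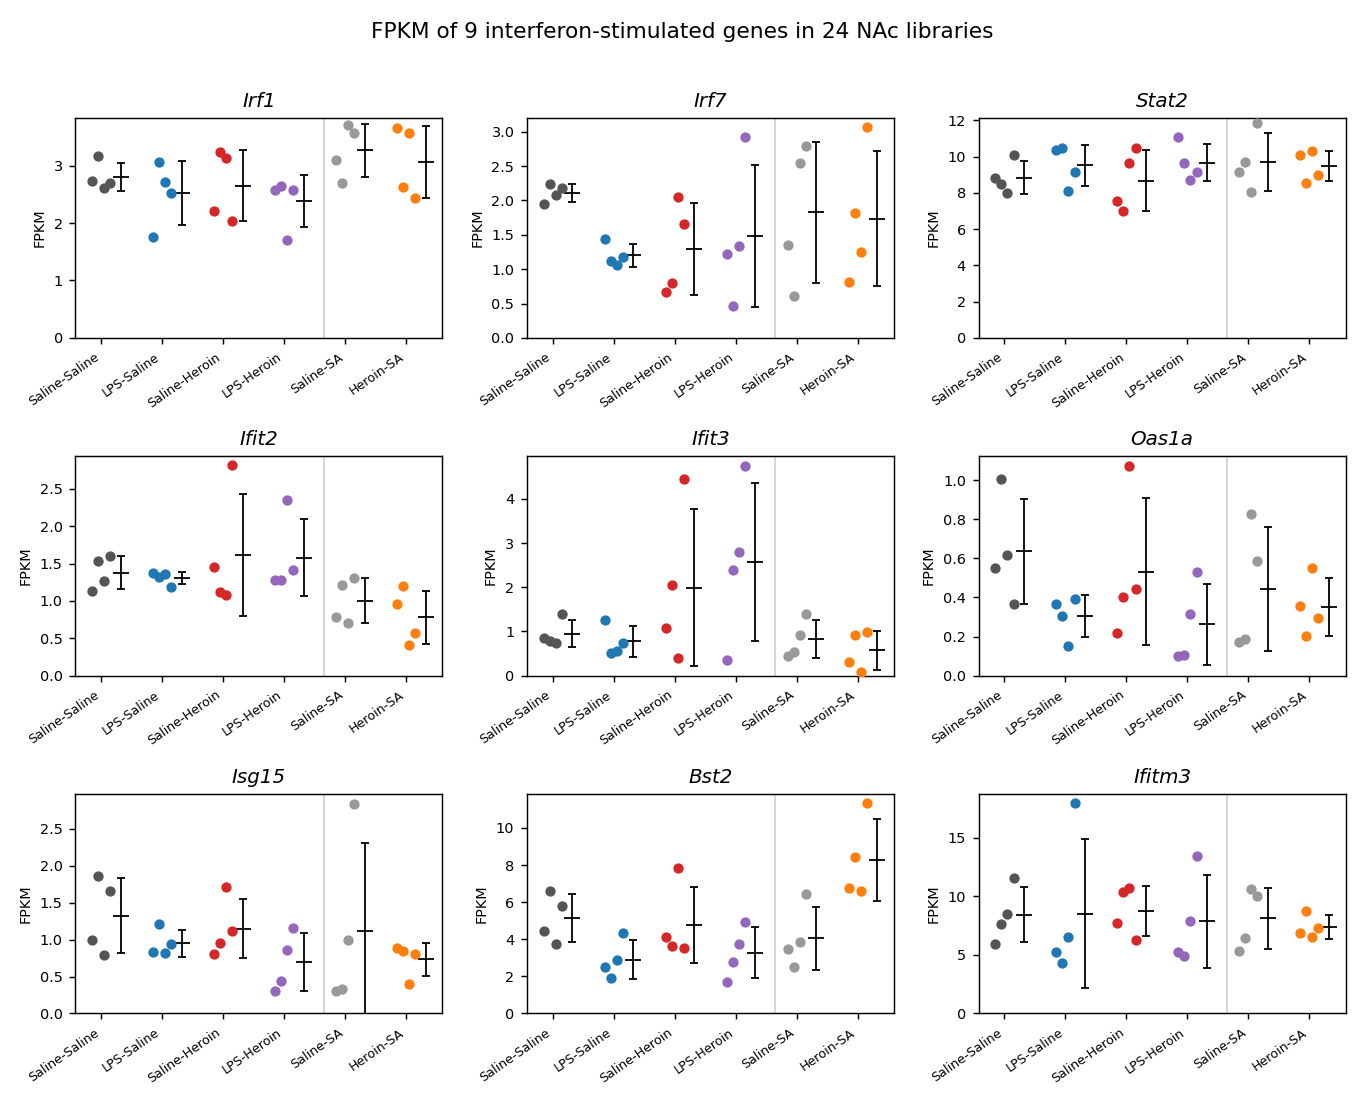
FPKM (vertical axes, each from 0) of the 9 genes in the 6 groups. Each point is 1 library, and the bar beside the points is the mean with its SD over 4 libraries, cut off at 0 where it would reach below. The grey line parts the injection groups from the self-administration groups. Irf7 was tightly grouped in Saline-Saline, Bst2 was highest in Heroin-SA, and Ifit3 was widely spread in the groups given heroin by injection.

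Of the transcription factors, Stat2, the interferon-specific STAT of the ISRE-binding complex, was the steadiest of the 9. Stat2 (ENSRNOG00000031081, rn6 chromosome 7, 2691369 to 2707741) ran from 6.99 to 11.9 FPKM, with group means between 8.68 ± 1.68 (SD, n = 4) in Saline-Heroin and 9.69 ± 1.62 (SD, n = 4) in Saline-SA. No pair of groups differed in Stat2 by more than the larger of their SDs.

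Irf1, a factor that drives many immune genes downstream of type II interferon, was likewise narrow in range. Irf1 (ENSRNOG00000008144, rn6 chromosome 10, 39109522 to 39116531) lay between 1.70 and 3.70 FPKM. Its highest group mean was 3.27 ± 0.458 FPKM (SD, n = 4) in Saline-SA and its lowest was 2.38 ± 0.453 (SD, n = 4) in LPS-Heroin.

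Irf7, the factor that amplifies the type I interferon response, was most even in the double saline controls. Irf7 (ENSRNOG00000017414, rn6 chromosome 1, 214248837 to 214252456) had 1.95, 2.24, 2.07 and 2.18 FPKM in the 4 Saline-Saline libraries and 1.44, 1.12, 1.06 and 1.18 FPKM in LPS-Saline. Every LPS-Saline value was below every Saline-Saline value. Saline-Heroin had 0.667, 0.792, 2.04 and 1.65 FPKM, and LPS-Heroin had 1.22, 0.458, 1.33 and 2.93 FPKM. Saline-Heroin fell apart into lower and higher libraries, whereas LPS-Heroin had an extreme on either side of its middle values. Each of these groups overlapped Saline-Saline. In Saline-SA the values were 1.35, 0.610, 2.55 and 2.79 FPKM and in Heroin-SA 0.809, 1.82, 1.25 and 3.07 FPKM, with the ranges almost on top of each other. The span of Irf7 overlaps Phrf1 on the opposite strand, and the sources do not say if reads were counted by strand, so its values are uncertain. The level of Phrf1 was 12.5 ± 0.889 FPKM (SD, n = 4) for Saline-Saline and 12.5 ± 1.05 (SD, n = 4) in LPS-Saline.

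The effectors Ifit2 and Ifit3 bind foreign RNA and hold back its translation, and they lie next to each other on chromosome 1 (rn6, 252894663 to 252900726 for Ifit2, ENSRNOG00000036604, and 252906234 to 252911373 for Ifit3, ENSRNOG00000022839). Ifit3 had 0.854, 0.778, 0.750 and 1.41 FPKM in Saline-Saline and 1.27, 0.509, 0.570 and 0.749 FPKM in LPS-Saline. Saline-Heroin had 1.08, 2.06, 0.390 and 4.45 FPKM, and LPS-Heroin had 0.362, 2.40, 2.79 and 4.74 FPKM. The groups with injected heroin thus held both the highest values of the injection experiment and its lowest, over 11.4-fold and 13.1-fold ranges. Saline-SA had 0.454, 0.537, 0.931 and 1.40 FPKM, and Heroin-SA had 0.321, 0.916, 0.0731 and 0.980 FPKM, the lowest from 2 reads. Ifit2 was less spread, at 1.38 ± 0.222 FPKM (SD, n = 4) for Saline-Saline, 1.62 ± 0.819 (SD, n = 4) for Saline-Heroin and 0.783 ± 0.357 (SD, n = 4) in Heroin-SA. The Ifit2 mean of Saline-SA, 1.00 ± 0.304 FPKM (SD, n = 4), was lower than that of every injection group.

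Oas1a makes the short oligoadenylates that switch on RNase L. The mean of Oas1a (ENSRNOG00000001369, rn6 chromosome 12, 41200718 to 41211909) was 0.635 ± 0.269 FPKM (SD, n = 4) for Saline-Saline and 0.305 ± 0.108 (SD, n = 4) for LPS-Saline. With heroin it was 0.533 ± 0.374 FPKM (SD, n = 4) for Saline-Heroin and 0.262 ± 0.205 (SD, n = 4) for LPS-Heroin. The means with LPS were the lowest of the 6 groups, and the ranges of all groups overlapped. Near-identical copies of Oas1a exist in the rat genome, so the split of reads among them is uncertain.

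Isg15 is a ubiquitin-like protein that is attached to others during the interferon response. Isg15 (ENSRNOG00000021802, rn6 chromosome 5, 173624310 to 173626248) had 0.992, 1.86, 0.792 and 1.66 FPKM in Saline-Saline and 0.826, 1.21, 0.824 and 0.940 FPKM in LPS-Saline. In Saline-Heroin it had 0.811, 0.952, 1.71 and 1.12 FPKM, and in LPS-Heroin 0.306, 0.445, 0.865 and 1.16 FPKM. The LPS-Heroin mean was the lowest of the 6 and the Saline-Saline mean the highest, with overlapping values. Saline-SA had 0.308, 0.333, 0.999 and 2.83 FPKM and Heroin-SA 0.883, 0.841, 0.397 and 0.810 FPKM. The highest of these, Saline-SA 4, was also the library with the most red blood cell RNA and had the highest summed FPKM of blood leukocyte markers, 20.4 against 1.34 to 7.46 in the others. The part of blood cells in that value was not tested.

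Bst2, also called tetherin, is a membrane protein that holds budding virus particles at the cell surface. Bst2 (ENSRNOG00000059900, rn6 chromosome 16, 19938784 to 19942353) had 4.45, 6.62, 3.73 and 5.78 FPKM in Saline-Saline and 2.51, 1.90, 2.86 and 4.34 FPKM in LPS-Saline. Saline-Heroin had 4.12, 3.66, 7.82 and 3.51 FPKM, and LPS-Heroin had 1.68, 2.80, 3.73 and 4.93 FPKM. Both groups with LPS had lower means than both without it in the injection experiment, and the ranges overlapped. Saline-SA had 3.45, 2.48, 3.83 and 6.43 FPKM and Heroin-SA had 6.76, 8.41, 6.58 and 11.4 FPKM. Every Heroin-SA value was above every Saline-SA value, by a margin of 6.58 against 6.43 FPKM at the nearest pair.

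Ifitm3, which blocks the entry of viruses at endosomes, had a mean between 7.36 ± 1.01 FPKM (SD, n = 4) in Heroin-SA and 8.76 ± 2.12 (SD, n = 4) in Saline-Heroin. Ifitm3 (ENSRNOG00000015078, rn6 chromosome 1, 213810696 to 213811901) reached 18.0 FPKM in LPS-Saline 4 and 13.4 FPKM in LPS-Heroin 4, and 4.34 to 7.91 FPKM in the other 6 libraries of rats given LPS. LPS-Saline 4 and LPS-Heroin 4 also had the highest summed FPKM of fibroblast and mural cell markers in their groups, 156 and 117, where the others had 57.5 to 88.0. All 10 markers of that list were above 0 in every group, and their part in the Ifitm3 values was not tested. Ifitm3 belongs to a family of similar genes, so reads could have been shared with its relatives.

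When the 6 group means of each gene were put in order, 2 of the 45 gaps between neighbours were larger than the larger SD of the pair. These were the gap in Bst2 between Heroin-SA and Saline-Saline, the next highest group, and the gap in Ifit2 between LPS-Saline and Saline-SA. All other neighbours did not differ beyond their spread.

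The comparisons were made with limma on log2(FPKM + 0.1), keeping genes whose mean FPKM reached 0.5. This excluded Oas1a except in Saline-Heroin against Saline-Saline, so 8 genes were tested in the other comparisons. A gene is called a DEG here where the unadjusted p does not exceed 0.05 and the log2 fold change is 0.378 or more in size. No gene of the genome had an adjusted p under 0.05 in any comparison (Benjamini-Hochberg over all genes tested, in limma). At an unadjusted p under 0.05 there were 607 to 1725 genes.

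Past LPS without heroin was compared first. In LPS-Saline against Saline-Saline, 2 of the 8 genes tested were DEGs, Irf7 and Bst2, both lower after LPS. Of all genes tested, 2.37% were DEGs. The log2 fold change of Irf7 was -0.77 (SE 0.17, adjusted p = 0.657 in limma), 0.585 times the control level. That of Bst2 was -0.83 (SE 0.26, adjusted p = 0.679 in limma), 0.562 times the control level. Irf7 was the only one of the 8 whose groups did not overlap, which was the case for 4.11% of all genes tested. Both remained DEGs when any 1 of the 8 libraries was left out, with a range of -0.86 to -0.72 for Irf7 and of -1.04 to -0.66 for Bst2. Fitted with all 6 groups sharing 1 estimate of the spread, Irf7 was not a DEG (adjusted p = 0.873 in limma). The log2 fold change of Phrf1, which overlaps Irf7, was -0.01 (SE 0.09, adjusted p = 0.987 in limma).

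The other 6 genes did not pass in this comparison. Their log2 fold changes ran from -0.38 for Isg15 to 0.10 for Stat2. The 95% interval was -0.15 to 0.36 for Stat2, -0.59 to 0.25 for Irf1 and -0.50 to 0.38 for Ifit2, and wider for the rest. Ifitm3 depended on 1 library: its log2 fold change was -0.18 with all libraries and -0.62 without LPS-Saline 4, where it became a DEG (adjusted p = 0.651 in limma). With no filter on low values, Oas1a had a log2 fold change of -0.84 and would be a DEG (adjusted p = 0.837 in limma). Without LPS-Saline 3, its lowest library of that group, Oas1a passed the filter with a log2 fold change of -0.63 and was not a DEG (adjusted p = 0.768 in limma). The median over the 8 genes tested was -0.24, and over all genes it was 0.01. Summed FPKM of the microglia markers was 227 to 253 in LPS-Saline and 221 to 281 in Saline-Saline, with all 10 markers above 0.

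Heroin injection without LPS was set against the same 4 Saline-Saline libraries. In Saline-Heroin against Saline-Saline, Irf7 was the 1 DEG among the 9 genes, and 3.07% of all genes tested were DEGs. Its log2 fold change was -0.80 (SE 0.34, adjusted p = 0.750 in limma). The call held without Saline-Heroin 3 or Saline-Heroin 4 and was lost without any 1 of the other 6 libraries, and the value ran from -1.06 to -0.56 over all 8. It was also lost with all groups in 1 fit. Ifit3 had a log2 fold change of 0.60 with a 95% interval of -0.78 to 1.98, and became a DEG without Saline-Heroin 3, at 1.15. The fibroblast and mural cell markers summed to 94.2 to 143 FPKM in Saline-Heroin and 75.1 to 120 in Saline-Saline, and the red blood cell genes to 445 to 1740 and 406 to 596 FPKM, and their part in these values was not tested. No gene of the 9 had groups without overlap, which 3.39% of all genes had. The median of the 9 was -0.10, against 0.00 over all genes.

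LPS and heroin together gave no call among the 8 genes in LPS-Heroin against Saline-Saline, where 5.43% of all genes were DEGs. Isg15 had a log2 fold change of -0.91 (95% interval -1.90 to 0.07, adjusted p = 0.487 in limma). Bst2 had -0.70 (95% interval -1.41 to 0.01, adjusted p = 0.457 in limma) and Irf7 had -0.72 (95% interval -1.71 to 0.26). Ifit3 went the other way, at 0.98 with a 95% interval of -0.48 to 2.44. Single libraries of the LPS-Heroin group decided these calls. Without LPS-Heroin 4, Irf7 (-1.12), Isg15 (-1.18) and Bst2 (-0.92) were DEGs, and without LPS-Heroin 1, Ifit3 (1.68) was. Leaving out Saline-Saline 3 made Isg15 and Bst2 DEGs. Each of these libraries held the extreme of its group for the genes named, on the side nearer to the other group. Leaving it out could only move the value further from 0, so these calls do not show a hidden effect. The median of the 8 was -0.21, against 0.00 over all genes, and no gene of the 8 had groups without overlap, which 6.86% of all genes had.

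The effect of heroin in rats with an LPS history was measured by LPS-Heroin against LPS-Saline. None of the 8 genes was a DEG, against 2.29% of all genes. Ifit3 had the largest difference, 1.27 (95% interval -0.22 to 2.77, adjusted p = 0.977 in limma), and was a DEG at 1.98 without LPS-Heroin 1. The Irf7 difference was 0.05 with a 95% interval of -0.97 to 1.07, and that of Bst2 was 0.13 with an interval of -0.65 to 0.91. The groups overlapped for each gene, whereas 2.58% of all genes had groups without overlap.

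The effect of an LPS history in rats given heroin was measured by LPS-Heroin against Saline-Heroin. Again none of the 8 genes was a DEG, against 2.2% of all genes. Isg15 had -0.74 (95% interval -1.69 to 0.21) and was a DEG at -1.01 without LPS-Heroin 4. Bst2 had -0.55 (95% interval -1.35 to 0.25). The 95% interval of Stat2 was -0.16 to 0.49. All groups overlapped, and 2.37% of all genes had groups without overlap.

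**Figure D2:**
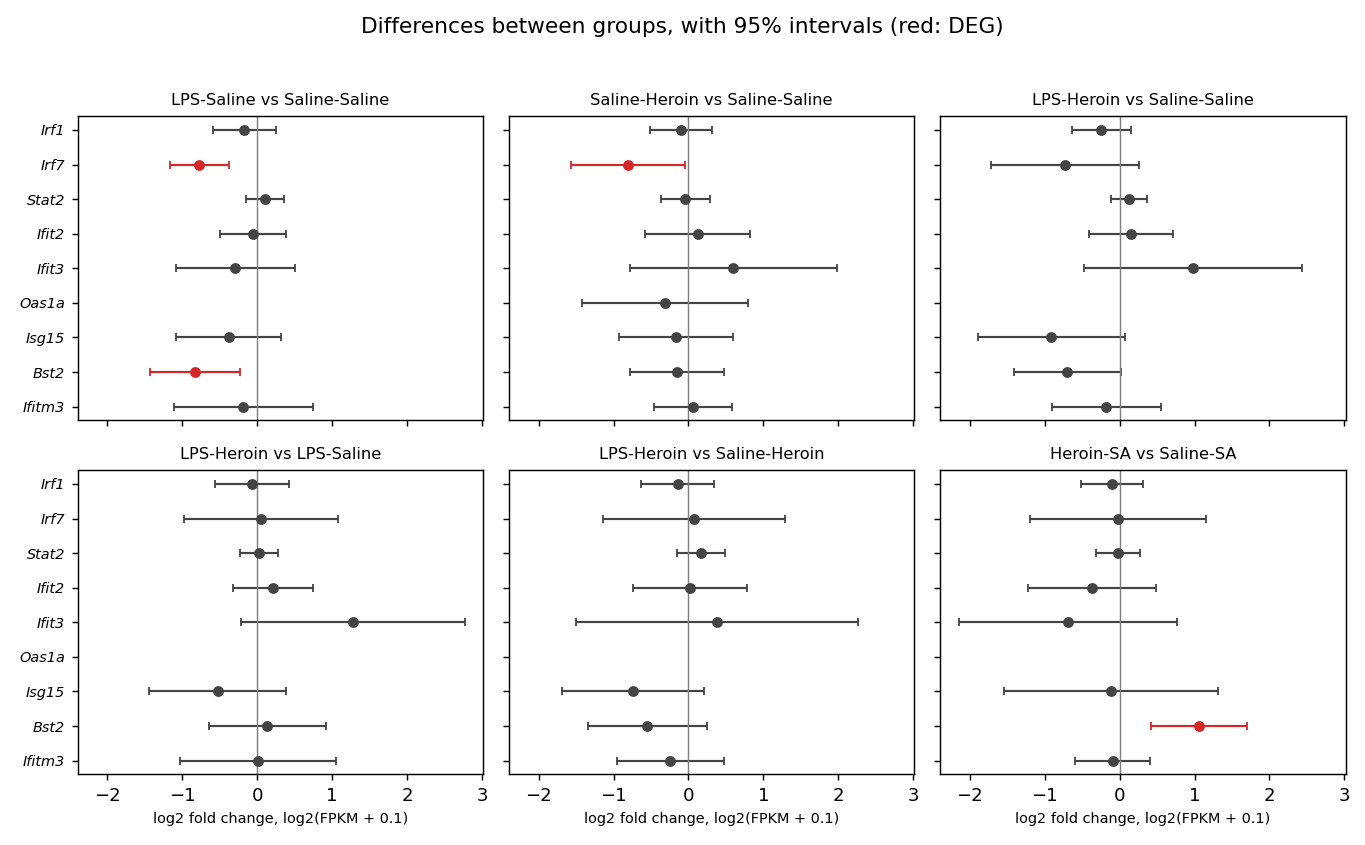
Log2 fold change on the log2(FPKM + 0.1) scale (horizontal axes) of each gene in the 6 comparisons between groups of 4 libraries, with its 95% interval in limma. Red marks DEGs: Irf7 and Bst2 in LPS-Saline, Irf7 in Saline-Heroin and Bst2 in Heroin-SA. Oas1a is drawn only where its mean FPKM reached 0.5, and the intervals of Stat2 are the narrowest.

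With the injection groups pooled, LPS was set against saline over both heroin conditions, 8 libraries against 8. Bst2 and Isg15 were DEGs and lower after LPS, 2 of the 8 genes, against 1.77% of all genes. Bst2 had a log2 difference of -0.69 (SE 0.24, adjusted p = 0.708 in limma) and stayed a DEG with each of the 16 libraries left out, between -0.80 and -0.55. Isg15 had -0.56 (SE 0.26, adjusted p = 0.741 in limma), and 10 of the 16 libraries cost it the call when left out. These were Saline-Saline 2 and 4, LPS-Saline 1, 3 and 4, Saline-Heroin 2, 3 and 4, and LPS-Heroin 1 and 2. With no filter, Oas1a had -0.82 and would be a DEG (adjusted p = 0.823 in limma). LPS-Saline 4 and LPS-Heroin 4 held the most fibroblast and mural cell RNA of their groups. Without them, Ifitm3 was a DEG at -0.58 (adjusted p = 0.556 in limma), and Bst2 had -0.91. These libraries also held the highest Ifitm3 and Bst2 of their groups, so leaving them out could only lower the LPS means. Saline-Heroin 2 and Saline-Saline 4, with marker sums of 143 and 120 against 117 in LPS-Heroin 4, were kept. This fit thus does not show a fall of Ifitm3 after LPS.

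Heroin injection pooled over LPS history gave no DEG among the 8 genes, against 2.46% of all genes. Ifit3 had the largest log2 difference, 0.94 (95% interval -0.09 to 1.96, adjusted p = 0.660 in limma), and was a DEG without Saline-Heroin 3 or without LPS-Heroin 1. Irf7 had -0.38 and was a DEG without LPS-Heroin 4, at -0.57. The pooled difference of Stat2 was -0.01 with a 95% interval of -0.21 to 0.19.

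The LPS by heroin interaction, which asks if heroin acted differently after LPS than after saline, passed for none of the 8 genes, against 2.31% of all genes. The value for Irf7 was 0.85 (95% interval -0.40 to 2.11, adjusted p = 0.992 in limma), and it was a DEG at 1.27 without LPS-Heroin 2. For Bst2 it was 0.28 with an interval of -0.72 to 1.29. The Bst2 difference between LPS and saline histories was therefore not shown to depend on heroin, and the interval is too wide to show that it was alike.

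Voluntary intake was compared in the self-administration groups. In Heroin-SA against Saline-SA, Bst2 was the 1 DEG among the 8 genes and was higher with heroin, while 5.45% of all genes were DEGs. Bst2 had 8.28 ± 2.22 FPKM (SD, n = 4) in Heroin-SA and 4.05 ± 1.68 (SD, n = 4) in Saline-SA. The log2 fold change was 1.06 (SE 0.28, adjusted p = 0.331 in limma), 2.09 times the control level. Bst2 was also the only one of the 8 whose groups did not overlap, which 6.8% of all genes had. It stayed a DEG with each library left out, between 0.86 and 1.31. Without Saline-SA 4 and Heroin-SA 4, the libraries richest in red blood cell RNA, it was 1.15 (adjusted p = 0.326 in limma). Without Saline-SA 3 and 4, which had the largest mitochondrial shares, it was 1.43 (adjusted p = 0.449 in limma). Saline-SA 3 and 4 also held the highest Bst2 of their group, so leaving them out could only raise the difference. That fit is therefore no check of the Bst2 call. Summed microglia markers were 195 to 240 FPKM in Heroin-SA and 189 to 248 in Saline-SA, and blood leukocyte markers were 3.66 to 7.14 and 3.75 to 20.4 FPKM, with 1 of the 9 leukocyte genes at 0 throughout each group.

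The other 7 genes tested in this comparison had log2 fold changes between -0.69 (Ifit3) and -0.02 (Irf7 and Stat2), each at or below 0. The 95% interval of Stat2 was -0.31 to 0.27 and that of Irf1 was -0.51 to 0.31. Irf7 and Isg15 were too variable to be read, with intervals of -1.19 to 1.15 and -1.54 to 1.31. The median of the 8 was -0.09, against 0.01 over all genes.

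The effect of self-administered heroin was then set against that of injected heroin, each over its own saline control. Bst2 was the 1 DEG of the 8 genes, against 4.38% of all genes. The difference of the log2 effects was 1.21 (SE 0.42, adjusted p = 0.691 in limma), from an effect of 1.06 in self-administration and -0.15 after injection. It stayed a DEG with each of the 16 libraries left out, between 1.01 and 1.47. For Irf7 the difference was 0.78 with a 95% interval of -0.62 to 2.18, and it was a DEG at 1.51 without Saline-SA 3 and 4. Ifit3 had -1.29 and was a DEG at -1.85 without Saline-Heroin 3. Saline-SA 3 and 4 held the highest Irf7 of their group, and Saline-Heroin 3 the lowest Ifit3 of its group. Leaving them out could only move these differences further from 0, so these calls do not show a difference for Irf7 or Ifit3.

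Other genes of the interferon pathway were followed in lists of 99 genes, of which 90 were in the table and 65 to 67 were tested in a comparison. Against the saline controls, DEGs of these lists were 2 of 67 in LPS-Saline, 3 of 67 in LPS-Heroin and 1 of 66 in Heroin-SA. Of all genes, 2.37%, 5.43% and 5.45% were. Saline-Heroin had 1 higher and 1 lower of 67, beside 3.07%. LPS-Heroin against Saline-Heroin had 3 of 66, beside 2.2%, and LPS pooled had 2 of 66, beside 1.77%. With so few calls, the DEGs named below describe single genes, not the pathway. None of the 6 listed interferon ligands found in the table was high enough to test. All 9 receptors and kinases were tested. The only DEG among them was Ifnlr1, a receptor chain for type III interferons, with a log2 fold change of -0.89 in Saline-Heroin and an interaction of 1.59 (adjusted p = 0.750 and 0.992 in limma). Its FPKM was 1.10 ± 0.318 (SD, n = 4) in Saline-Saline and 0.574 ± 0.241 (SD, n = 4) in Saline-Heroin. It was 0.711 ± 0.628 FPKM (SD, n = 4) in LPS-Saline, scattered from 0.137 to 1.47, and 0.929 ± 0.286 (SD, n = 4) in LPS-Heroin.

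Among the STAT and IRF factors, Irf3, a factor that starts interferon production, had a difference of 0.41 between the effects of self-administered and injected heroin (adjusted p = 0.670 in limma) and was a DEG there. Its level was 41.4 ± 3.60 FPKM (SD, n = 4) for Saline-SA and 49.4 ± 3.48 (SD, n = 4) for Heroin-SA. In the injection experiment it was 47.6 ± 3.24 FPKM (SD, n = 4) for Saline-Saline and 42.9 ± 4.37 (SD, n = 4) for Saline-Heroin. Irf3 was not a DEG in either of these heroin comparisons alone. Irf9 passed in no comparison.

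Of 13 sensors and adaptors of nucleic acids in the table, 10 were tested in each comparison. Myd88, an adaptor of Toll-like receptors, was the 1 DEG, at -0.44 in LPS-Heroin against Saline-Heroin (adjusted p = 1.00 in limma).

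The largest list held 44 other interferon-induced effectors, of which 30 to 32 were tested. Irgm, an immunity-related GTPase, was lower in LPS-Saline (-0.48) and in LPS-Heroin (-0.80) than in Saline-Saline, and the 2 comparisons share those controls. Its level was 2.10 ± 0.156 FPKM (SD, n = 4) for Saline-Saline, 1.50 ± 0.359 (SD, n = 4) in LPS-Saline and 1.17 ± 0.251 (SD, n = 4) in LPS-Heroin, and its pooled LPS difference was -0.51 (adjusted p = 0.708 in limma). Oasl2, an OAS-like protein, was lower in LPS-Saline (-0.79) and over both heroin conditions (-0.63, adjusted p = 0.730 in limma). Ifi44 (-0.63) and Igtp (-0.57) were lower in LPS-Heroin than in Saline-Saline. Ifitm2, a relative of Ifitm3, was higher in Saline-Heroin than in Saline-Saline (0.80) and lower in LPS-Heroin than in Saline-Heroin (-0.81). The list's median was -0.27 in LPS-Heroin against Saline-Saline, with 8 of 32 genes above 0, and -0.21 for LPS pooled over heroin, with 5 of 31 above 0, beside medians of 0.00 over all genes. Against their controls, it was -0.09 for LPS-Saline, -0.07 for Saline-Heroin and -0.06 for Heroin-SA, with 11 of 32, 13 of 32 and 11 of 30 above 0. In LPS-Heroin against Saline-Heroin it was -0.23 with 4 of 31 above 0. For heroin injection pooled over LPS it was -0.09 with 9 of 31 above 0. The list's median was below 0 in each of these comparisons, with and without LPS.

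Of 8 negative regulators tested, Socs1, a feedback inhibitor of JAK kinases, was the only DEG. Socs1 was lower in LPS-Heroin than in Saline-Heroin (-0.75), with an interaction of -1.20 and a difference of -1.22 between the effects of self-administered and injected heroin (adjusted p = 1.00, 0.992 and 0.721 in limma). It rested on at most 30 reads per library. No pathway gene was a DEG in LPS-Heroin against LPS-Saline or for heroin injection pooled over LPS, beside 2.29% and 2.46% of all genes. The interaction had 1 higher and 1 lower of 66 pathway genes, beside 2.31% of all genes. The difference between the heroin effects had 1 higher and 1 lower of 67, beside 4.38%.

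**Figure D3:**
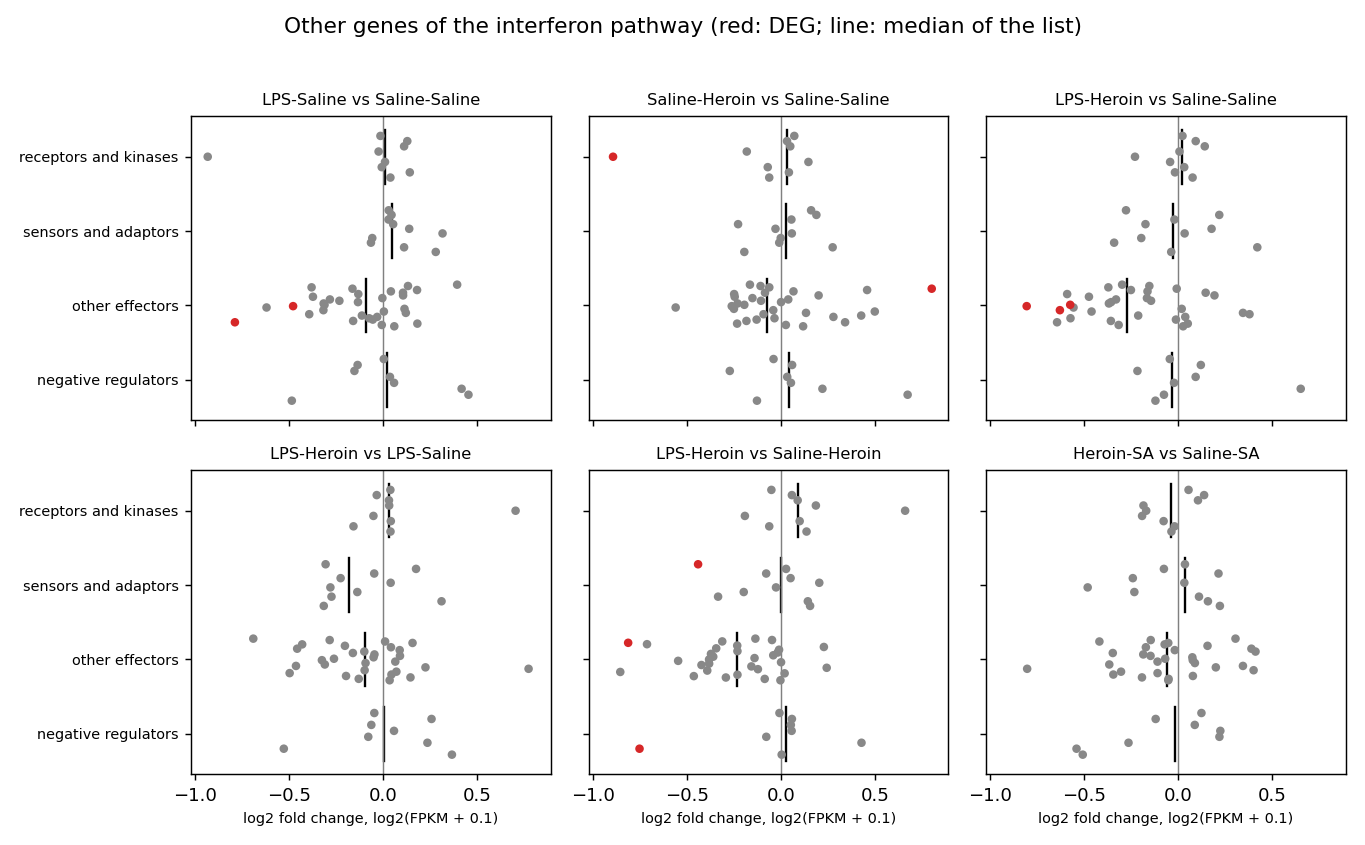
Log2 fold change on the log2(FPKM + 0.1) scale (horizontal axes) of the other interferon pathway genes tested, in 4 of the lists (rows), in the 6 comparisons. Each point is 1 gene, red points are DEGs and the black line is the median of the list. The median of the other effectors was -0.27 in LPS-Heroin against Saline-Saline, and the medians of the other 3 lists drawn in that comparison lay between -0.03 and 0.02.

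The 9 genes did not vary as 1 unit across the 24 libraries. Over the 36 pairs of genes, Pearson's r of log2(FPKM + 0.1) was above 0 in 26 and had a median of 0.131, and with group means removed the median was 0.228. Irf7, Isg15, Bst2, Ifitm3 and Oas1a, grouped after their values were seen, had r between 0.403 and 0.669 in all 10 pairs among them, and between 0.429 and 0.724 within groups. Ifit2 and Ifit3 went with each other (r = 0.653, n = 24 libraries, Spearman's rho 0.561). Irf1 went against both, with r = -0.596 for Ifit2 and -0.514 for Ifit3. Stat2 had r between -0.276 and 0.10 with each of the others. These are descriptions, since genes of 1 library share its depth, its cell makeup and, for a few of them, its low read numbers.

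**Figure D4:**
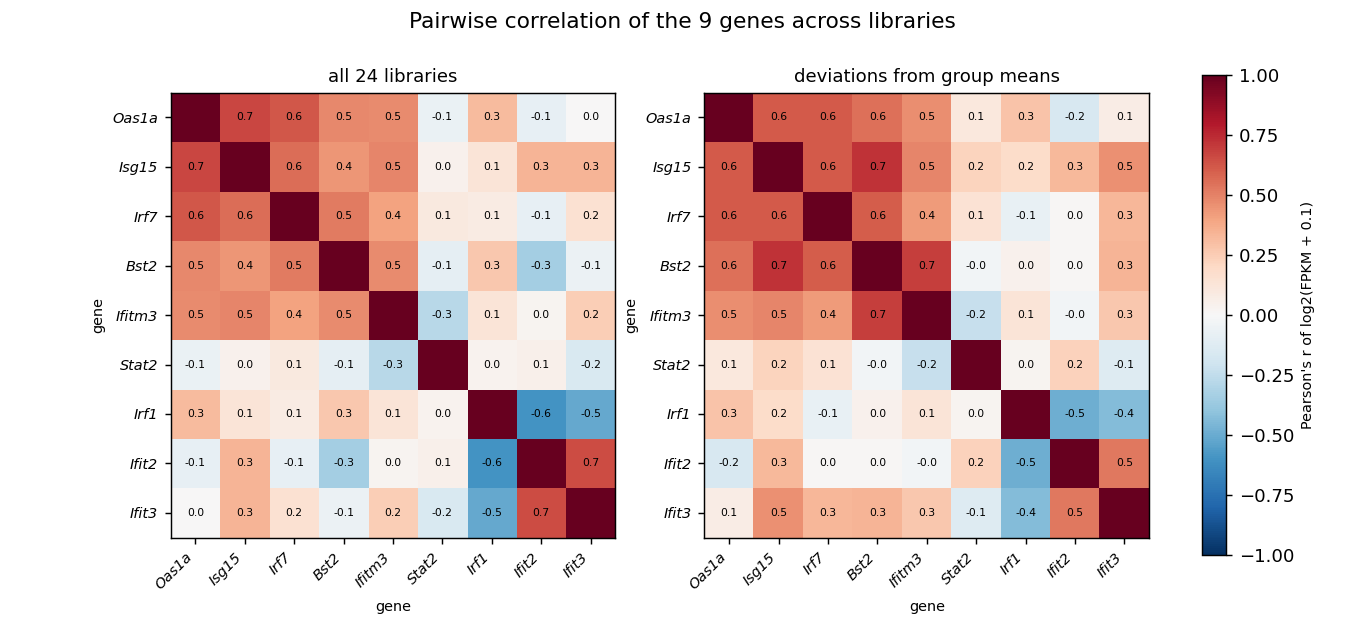
Pearson's r of log2(FPKM + 0.1) for each pair of the 9 genes (rows and columns), over all 24 libraries on the left and after subtraction of the group means on the right. Red is positive and blue negative. Oas1a, Isg15, Irf7, Bst2 and Ifitm3 form a block of positive values, Ifit2 pairs with Ifit3, and Irf1 is negative with that pair.

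Averaged over the 9 genes, the centred log2 level was highest in Saline-SA 4 (0.60) and LPS-Heroin 4 (0.57) and lowest in LPS-Heroin 1 (-0.60) and Saline-SA 2 (-0.51). The extremes thus lay within groups, not between them. All 4 Saline-Saline libraries were above 0, between 0.05 and 0.41, and LPS-Saline ran from -0.31 to 0.08. Among 13856 genes with a mean of at least 1 FPKM, those outside the 9 whose pattern was most like this average over 24 libraries were Rarres1 (Pearson's r = 0.736), Zc3hav1 (r = 0.696), AABR07036920.1 (r = 0.695), Inmt (r = 0.674) and Ints3 (r = 0.661).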

How the data were processed

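NAc RNA of 24 libraries was analysed. Directional libraries were made from 300 ng of total RNA by poly-A selection, and per the labels the reads were processed with fastp, HISAT2 and featureCounts on rn6. Versions and the use of strand are not given in the sources used here. The authors deposited FPKM for 32545 genes. Every value (100%) could be turned back into whole reads (tolerance 0.01 reads), with 12312878 to 18850240 reads per library, so low genes carry counting error. Groups came from the labels.

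Each comparison was fitted with limma 3.58.1 in R 4.3.3 (limma-trend with no covariate) on log2(FPKM + 0.1), over genes with a mean of at least 0.5 FPKM. Pooled, interaction and difference contrasts used all 16 libraries of the groups involved. Adjusted p-values are Benjamini-Hochberg over all genes tested. Changes of low genes come out too small on this scale. DEG limits were an unadjusted p up to 0.05 and a log2 fold change of 0.378 or more in size, those of the study's pattern analyses. The comparisons with Saline-Saline share its libraries. No count model was the main test, since the unit is FPKM. Means are given with SD over 4 libraries. The scripts were tested on simulated reads.

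The genes named were the 9, the DEGs of the pathway lists, and the 5 genes most like the average pattern. Some pathway genes are not reported here. Promoters of at most 4 genes with an ISRE core were shown. Genes and lists were chosen with earlier results of these data known. Alternatives were other pseudocounts, filters, scalings, limits, shared or robust spread estimates, the replicate number as a block, limma-voom on recovered reads, and leaving out libraries. Leaving out pairs of libraries was added after seeing the data. Leaving out a library at the extreme of its group moves a value in a direction fixed beforehand. A call gained in that way describes how much the result rests on that library and is no support for a change.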

Additional observations from a re-analysis of the deposited data

Results flagged for a closer look

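Of 54 sets of 4 libraries, 6 held a library whose gap to the nearest, as a share of the set's range, was above Dixon's 95% critical value, and chance gives about 1 in 20. Ifit2 was 2.35 FPKM in LPS-Heroin 3, where the next was 1.42. Ifit3 was 1.41 FPKM in Saline-Saline 4, where the next was 0.854. Irf1 was 1.70 FPKM in LPS-Heroin 3, below the next at 2.57. Isg15 was 0.397 FPKM in Heroin-SA 3, below the next at 0.810, from 7 reads. Bst2 was 7.82 FPKM in Saline-Heroin 3, where the next was 4.12. Ifitm3 was 18.0 FPKM in LPS-Saline 4, where the next was 6.52. LPS-Heroin 3 was thus high for Ifit2 and low for Irf1.

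The effect of heroin on Bst2 differed between self-administration and injection by 1.21 on the log2 scale (adjusted p = 0.691 in limma). The experiments also differ in route, surgery, housing and timing, which cannot be told apart.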

How the results depend on the processing

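No called log2 fold change of a member reversed. Counts of members called moved as follows. In LPS-Saline against Saline-Saline the 2 calls became 1 with all groups in one fit (Bst2) and 1 at p of at most 0.01 (Irf7), and rose to 3 with no filter (Oas1a added) and without LPS-Saline 4 (Ifitm3 added), for 2 to 3 with single libraries left out. In Saline-Heroin against Saline-Saline the 1 call (Irf7) became 0 with all groups in one fit and 0 at p of at most 0.01. It became 0 to 2 calls with single libraries left out. In LPS-Heroin against Saline-Saline the count of 0 became 1 with no filter (Oas1a), 1 with all groups in one fit and 1 with the replicate block (Bst2 in both). It became 2 with limma-voom (Isg15 and Bst2) and 0 to 3 with single libraries left out, the 3 without LPS-Heroin 4. LPS-Heroin against LPS-Saline gave 0 to 1 with single libraries left out, as did the interaction and LPS-Heroin against Saline-Heroin, where the 1 (Isg15) came without LPS-Heroin 4. For LPS pooled, the 2 calls became 1 (Bst2) with a pseudocount of 1, a mean filter of 1 FPKM, quantile normalization or all groups in one fit, 0 at p of at most 0.01, and 1 to 2 with single libraries left out. They rose to 3 with no filter (Oas1a added) and without LPS-Saline 4 and LPS-Heroin 4 (Ifitm3 added). For heroin pooled, the count of 0 became 1 with a pseudocount of 1 (Ifit3), and 0 to 1 with single libraries left out. For self-administered minus injected heroin, the 1 call became 0 at p of at most 0.01, 1 to 2 with single libraries left out and 2 without Saline-SA 3 and 4. The cause was not tested, beyond the fewer libraries, genes or calls each setting allows. The share of all genes called under each alternative is not given here. A moved count therefore cannot be told apart from a setting that calls more or fewer genes in general. Heroin-SA against Saline-SA kept 1 call, Bst2, throughout, the limit of p of 0.01 included.

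Replicate numbers were not treated as pairs in the main fits. The deviations of same-numbered libraries had a median correlation of 0.00732 over 60 pairs, with 5 above 0.1. For libraries with different numbers it was -0.00495 over 180 pairs, with 9 above 0.1. These values do not settle whether any same-numbered samples were handled together. The replicate block changed no other count of calls among the members. Depth limits Oas1a and Isg15, which had as few as 3 and 6 reads.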
